A study of Mus musculus with 6 samples.

Results

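Fndc3b, also called Fad104, encodes a membrane-anchored protein with fibronectin type III repeats and is known as a gene that favours the differentiation of fat cells. The deposited table lists 11 circular RNAs (circRNAs) from it, out of 3662 circRNAs in all. They are the circRNAs on the minus strand of chromosome 3 that lie within the annotated gene (mm9, chr3:27315084-27610229, GENCODE gene ENSMUSG00000039286). Fndc3b was chosen by the number of its circRNAs that passed the read minimum of the authors, and this number is therefore a description. Of 2017 parental genes, 804 gave more than 1 circRNA and 2 gave more than Fndc3b.

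The cultures were grown from SVF, the stromal vascular fraction that remains of a fat pad without its mature adipocytes and that mixes several cell types, of the inguinal white fat of C57BL/6 mice (C57BL/6J in the study's methods) aged 6 weeks. D0 cells were proliferating, D4 cells had spent 4 days in an induction medium with insulin, dexamethasone and 3-isobutyl-methylxanthine, and D8 cells a further 4 days in medium with insulin and triiodothyronine. Each stage had 2 replicate libraries, made from RNA depleted of rRNA and linear RNA. The study calls them biological replicates, while the labels do not say whether they came from separate mice, and p-values measure the spread between these libraries.

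A circRNA forms when the spliceosome joins the end of an exon (a donor site) backwards to an acceptor site, where that exon or one upstream of it begins. The joint is the back-splice, and a read across it identifies the pair of sites joined. It does not show which exons lie between them, so circles are described here by the annotated exons between their ends. A read is said here to enter a circle at its acceptor and to leave it at its donor. The total was 30110 to 50672 back-splice reads per library, and levels are given as circCPM, the reads per 1000000 back-splice reads of the library. A single read was worth 19.7 to 33.2 circCPM. No value of the table equals 1, so a circRNA listed at 0 may have had a single read, and folds are left out where both libraries of the lower stage are listed at 0.

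The 11 circles came from 3 stretches of the 26-exon transcript ENSMUST00000046157. The most read stretch was the 5′ part. Here circ_0001113 (chr3:27519527-27542011, 733 reads) joined the end of exon 3 to the start of exon 2, and circ_0010609 (chr3:27455042-27542011, 289 reads) joined the end of exon 4 to the same start. A further 4 circles left at exon 3 but entered at sites within intron 1 that no transcript of GENCODE M1 uses as an exon start. These sites are called a to d by their distance upstream of exon 2. The circles were chr3:27519527-27548262 from site a at 6.25 kb (193 reads), chr3:27519527-27581736 from site b at 39.7 kb (65 reads), chr3:27519527-27581908 from site c at 39.9 kb (19 reads) and chr3:27519527-27584994 from site d at 43.0 kb (17 reads). The middle stretch gave circ_0010608 of exons 8 to 11 (chr3:27387159-27400467, 403 reads), a circle of exons 7 to 11 (chr3:27387159-27407461, 66 reads), one of exons 8 to 10 (chr3:27389947-27400467, 31 reads) and one of exons 10 to 11 (chr3:27387159-27390085, 11 reads). The 3′ part gave a single circle of exons 23 to 25 (chr3:27324956-27339092, 19 reads). The weakest member by total, exons 10 to 11, was kept by its 2 and 3 reads at D8.

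**Figure D1:**
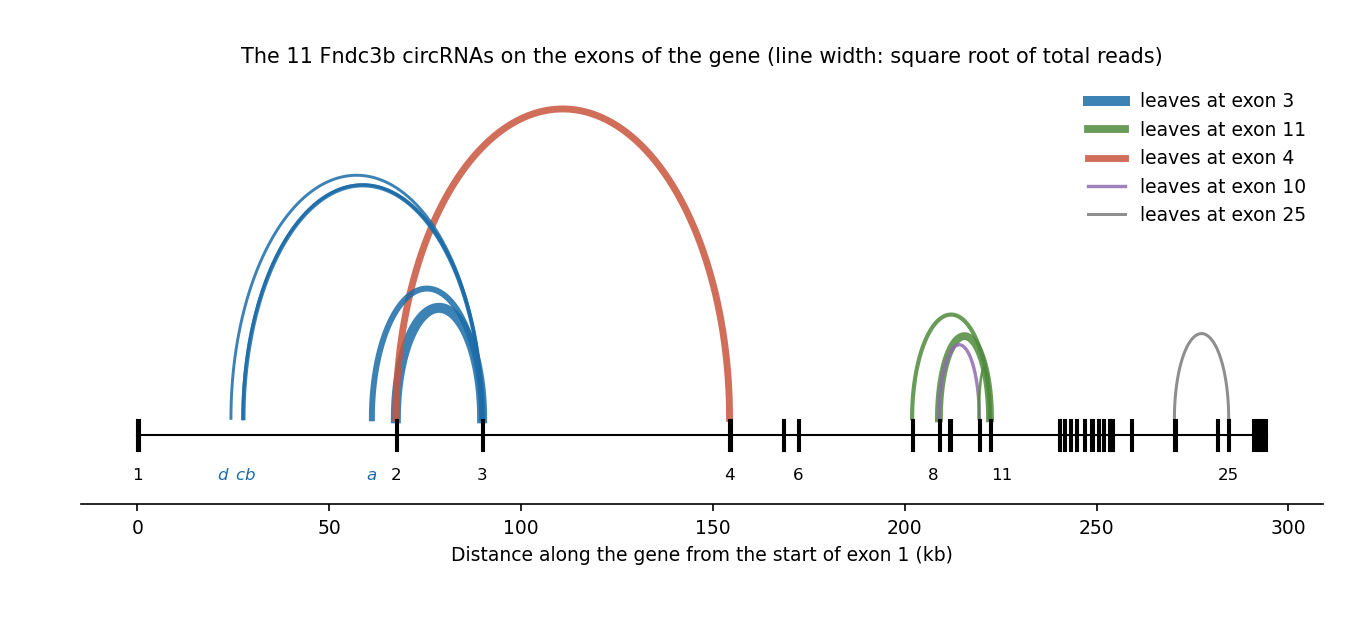
Map of the 11 Fndc3b circRNAs. The horizontal axis is the distance in kb from the start of exon 1 along the direction of transcription, black blocks are the 26 exons (some numbered, drawn at least 0.6 kb wide), letters a to d are the acceptor sites within intron 1, each arc joins the acceptor and donor of a circle, and arc width follows the square root of its reads over the 6 libraries. Arcs cluster at exons 2 to 4 and at exons 7 to 11, and the arc of site c lies almost on that of site b.

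The difference between the most read circle and circ_0010609 is exon 4. The coding bases of exons 2, 3 and 4 are shown spliced together, from the annotated start codon onward (mm9, minus strand, chr3:27455042-27541983), with exon 4 in capitals, since circ_0001113 holds only the part in lower case while circ_0010609 holds all of it.
exons 2, 3 and 4: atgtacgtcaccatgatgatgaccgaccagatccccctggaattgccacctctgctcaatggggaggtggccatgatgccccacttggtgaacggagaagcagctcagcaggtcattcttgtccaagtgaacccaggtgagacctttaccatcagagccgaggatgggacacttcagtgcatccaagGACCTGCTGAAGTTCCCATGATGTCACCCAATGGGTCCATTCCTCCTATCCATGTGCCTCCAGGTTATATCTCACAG

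The back-splices of the 5 most read circles show how these sites are reused. Lower case marks the last 20 bases of the donor exon and capitals the first 10 bases of the circle.
circ_0001113: gacacttcagtgcatccaagGTAGCAGGTT
circ_0010609: ctccaggttatatctcacagGTAGCAGGTT
site a to exon 3: gacacttcagtgcatccaagGCTGAACCCC
circ_0010608: accttttagaatgggatgagGTGTCTAATA
exons 7 to 11: accttttagaatgggatgagAGTATGAGTT
Both circles that enter at exon 2 end in the same capitals, and the circle of site a repeats the lower-case part of circ_0001113.

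The acceptors joined to the exon 3 donor are given with 20 genome bases before the circle and its first 10 bases, and capitals mark the AG of the splice site.
exon 2 (chr3:27542002-27542031): cgtgggtgtttctcttgcAGgtagcaggtt
site a (chr3:27548253-27548282): tgcttgtttgtttttgaaAGgctgaacccc
site b (chr3:27581727-27581756): ctattgttttatttttttAGggaacctcgt
site c (chr3:27581899-27581928): tgcttgttttacctttgtAGaaaaacattt
site d (chr3:27584985-27585014): ggtaatattgtgattcttAGtttccagatg
All 11 members had AG before the circle and GT after it, as did 99.6% of all circRNAs. In the 18 bases before the AG, where acceptors are usually rich in pyrimidines, exon 2 and site a had 12 pyrimidines each, site b 15, site c 14 and site d 10, and the median of all circRNAs was 14. Among the 11 members, 7 start and stop at annotated exon borders, against 91.8% of all circRNAs. By the deposited circBase names, 3 members were known to that database and 8 were not, where 64.4% of all circRNAs were.

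The introns around the most read circle are long. Intron 1 before exon 2 has 67256 bases and intron 3 after exon 3 has 64408, where the medians over the circRNAs with annotated ends were 10432 before and 8179 after the circle. Among those circRNAs 7.05% had an intron of more than 60 kb before them and 4.77% after them. circ_0010609 ends before intron 4, which has 13945 bases, and spans 86970 bases of the genome, and 1.20% of all circRNAs spanned more. After splicing along the annotated exons the circles are short, with 215 bases for circ_0001113, 292 for circ_0010609, 405 for circ_0010608, 464 for exons 7 to 11, 351 for exons 8 to 10, 193 for exons 10 to 11 and 508 for exons 23 to 25. The median over the circRNAs that had such a length was 443. The circles that enter within intron 1 have no matching exon in GENCODE M1, so no length is given for them.

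The reading frame along the annotated exons differs between these circles. circ_0001113 and circ_0010609 carry the annotated start codon, and the frame from it runs over the back-splice and meets a stop codon after 76 and 91 codons. circ_0010608 holds codons 287 to 421 and the circle of exons 8 to 10 holds codons 287 to 403. Both have a length that 3 divides, so that the annotated frame closes on itself with no stop codon, and neither has an ATG in that frame. Translation was not measured. The seed sites of miR-130a-3p (TTGCACT), miR-17-5p (GCACTTT) and miR-30c-5p (TGTTTAC), miRNAs studied in adipogenesis, were searched on the circular sequence of the 7 annotated members and were found in 0 of them, where 3.09%, 3.62% and 3.33% of the 3338 annotated circles of the table hold them. The miRNA sequences are from RefSeq (GRCm38.p6), and the absence says only that these letters are not in these circles. Other site types and other miRNAs were not searched.

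All Fndc3b circles together had 86 and 198 reads in the replicates of D0, 486 and 436 at D4, and 295 and 345 at D8, or 1846 reads in all (0.759% of the table, rank 12 among the parental genes). The summed level was 2856 and 6128 circCPM at D0, 11284 and 10466 at D4, and 6502 and 6808 at D8. Both D4 libraries lay above all others and both D8 libraries lay above both D0 libraries, while the D0 replicates differed more than those of the other stages. The mean was 4492 ± 2314 circCPM (SD, n = 2) at D0, 10875 ± 578 at D4 and 6655 ± 217 at D8. When the reads of each parental gene were summed and all 1108 genes with enough reads were fitted together, Fndc3b had an adjusted p of 0.043 across the 3 stages (edgeR's quasi-likelihood F-test). In this fit 8.94% of the genes passed. The sum holds the circles of sites b, c and d and of exons 10 to 11, which were at 0 in both D0 libraries. These circles entered the table through D4 or D8 and could only add to the later sums. The circles of exons 7 to 11, 8 to 10 and 23 to 25, each with reads in a single D0 library, also met the authors' read minimum only at D4 or D8. The part of all these circles in this call and in the changes between stages was not tested. The D4 level was 2.68-fold the D0 level (log2 fold change 1.42, SE 0.31, adjusted p = 0.0241, with 8.66% of the genes called). The log2 value was 1.02 without D0 replicate 1 and 2.10 without D0 replicate 2. Between D0 and D8 (log2 0.64, SE 0.31, adjusted p = 0.242) and between D4 and D8 (log2 -0.78, SE 0.30, adjusted p = 0.22) the neighbours in the order did not pass. For D8 against D0 the log2 value was 0.24 without D0 replicate 1 and 1.32 without D0 replicate 2, where it passed (adjusted p = 0.025). The call across stages was lost on leaving out any library of D4 or D8, the adjusted p being 0.148 without D4 replicate 1, 0.113 without D4 replicate 2, 0.125 without D8 replicate 1 and 0.0943 without D8 replicate 2. It was also lost with column totals (0.0608) and with no filter (0.0573). The D4 against D0 call was lost without D4 replicate 1 (0.112), D4 replicate 2 (0.0777) or D8 replicate 1 (0.0707) and with no filter (0.0588). Since these are bulk cultures, a change in the number of cells that make a circRNA and a change in its level per cell cannot be told apart, and linear Fndc3b RNA was not analysed here.

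Among the single circles, circ_0010609 of exons 2 to 4 rose most clearly. It had 4 and 9 reads at D0, 76 and 82 at D4, and 61 and 57 at D8, that is 133 and 279 circCPM, then 1765 and 1968, then 1344 and 1125. Each library of D4 and D8 stood above both of D0, and D4 stood above D8. It was the only 1 of the 6 members tested that passed the 3-stage test (adjusted p = 0.0447 by edgeR), where 1.14% of the 1407 circRNAs tested passed. It was higher at D4 than at D0 (log2 3.24, SE 0.44, adjusted p = 0.0225, 3.27% called) and at D8 than at D0 (log2 2.65, SE 0.44, adjusted p = 0.0343, 1.49% called), and D8 against D4 gave a log2 value of -0.59 (SE 0.37, adjusted p = 0.562, 0.0711% called). With 4 and 9 reads at D0, circ_0010609 passed the filter on low counts only through D4 and D8, where it was high. The part of this filter in its calls was not tested. The 3-stage call sits near the threshold. The adjusted p ran from 0.000635 to 0.112 over the alternatives, and was 0.0505 with column totals, 0.0509 with a mean of 5 or more reads and 0.0757 with a replicate block. Leaving out D4 replicate 1 gave 0.106, and leaving out D4 replicate 2 gave 0.112. The same omissions ended the D4 call (0.0662 and 0.11). The D8 call was lost without D0 replicate 1 (adjusted p = 0.0695), D8 replicate 1 (0.0549) or either library of D4 (0.0873 and 0.088), with the block (0.0795) and in a fit of the pair of stages (0.0954). Without D0 replicate 1 and D0 replicate 2 the log2 change was 2.85 and 3.88 for D4, and 2.27 and 3.30 for D8.

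circ_0001113, the circle of exons 2 to 3 and the most read member at each stage, had 51 and 109 reads at D0, 188 and 147 at D4, and 116 and 122 at D8. Its levels were 1694 and 3374 circCPM at D0, 4365 and 3529 at D4, and 2557 and 2408 at D8. The D4 libraries were the highest, the lower of them close to D0 replicate 2, and the D8 libraries lay between those of D0. The fitted changes were 0.73 (SE 0.34) from D0 to D4, 0.07 (SE 0.34) from D0 to D8 and -0.67 (SE 0.34) from D4 to D8 on the log2 scale, and the 3-stage test did not pass (adjusted p = 0.357 by edgeR). The D4 change was 0.35 without D0 replicate 1 and 1.32 without D0 replicate 2. The direction of the circ_0001113 change from D0 to D8 depended on the setting, with log2 values of -0.03 with column totals and -0.31 without D0 replicate 1.

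The circle of site a to exon 3 had 3 and 12 reads at D0, 42 and 60 at D4, and 26 and 50 at D8, or 99.6 and 371 circCPM, 975 and 1440, and 573 and 987. All libraries after induction lay above those of D0. The test gave a log2 change of 2.42 (SE 0.64) from D0 to D4, with an adjusted p of 0.0884, and the 3-stage test gave 0.144 by edgeR. The log2 value was 1.81 without D0 replicate 1 and 3.66 without D0 replicate 2. Site b was listed at 0 in both D0 libraries and had 25 and 15 reads at D4 and 19 and 6 at D8. Its adjusted p was 0.126 across stages. For D4 against D0 it was 0.0771, and it ran from 0.0265 without D8 replicate 2 and 0.0442 without D8 replicate 1 to 0.212 without D4 replicate 1. With 0 at D0 this circle passed the filter on low counts through D4 and D8 alone. The circle of site a, with 3 and 12 reads at D0, also needed its later libraries to pass this filter. Sites c and d were also at 0 in both D0 libraries. Site c had 3 and 8 reads at D4 and 0 and 8 at D8, and site d had 10 and 7 reads at D4 and 0 in both libraries of D8. Neither had enough reads to be tested.

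In the middle stretch circ_0010608 had 26 and 44 reads at D0, 111 and 87 at D4, and 50 and 85 at D8, which makes 864 and 1362, 2577 and 2088, and 1102 and 1677 circCPM. D4 was again above both other stages, and D8 overlapped D0. The log2 change from D0 to D4 was 1.16 (SE 0.36, adjusted p = 0.128 by edgeR) and the 3-stage adjusted p was 0.198. The circle of exons 7 to 11 had 0 and 9 reads at D0, 11 and 23 at D4, and 17 and 6 at D8, and its replicates overlapped between all stages (adjusted p = 0.689). The sign of its D8 against D0 change turned without D0 replicate 1 (log2 -0.05) and without D8 replicate 1 (log2 -0.13). The circle of exons 8 to 10 was the only member with its highest count at D0, with 0 and 15 reads there, 8 and 3 at D4, and 0 and 5 at D8. Exons 10 to 11 had 0 in both libraries of D0, 6 and 0 reads at D4, and 2 and 3 at D8. The 3′ circle of exons 23 to 25 had 2 and 0 reads at D0, 6 and 4 at D4, and 4 and 3 at D8.

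**Figure D2:**
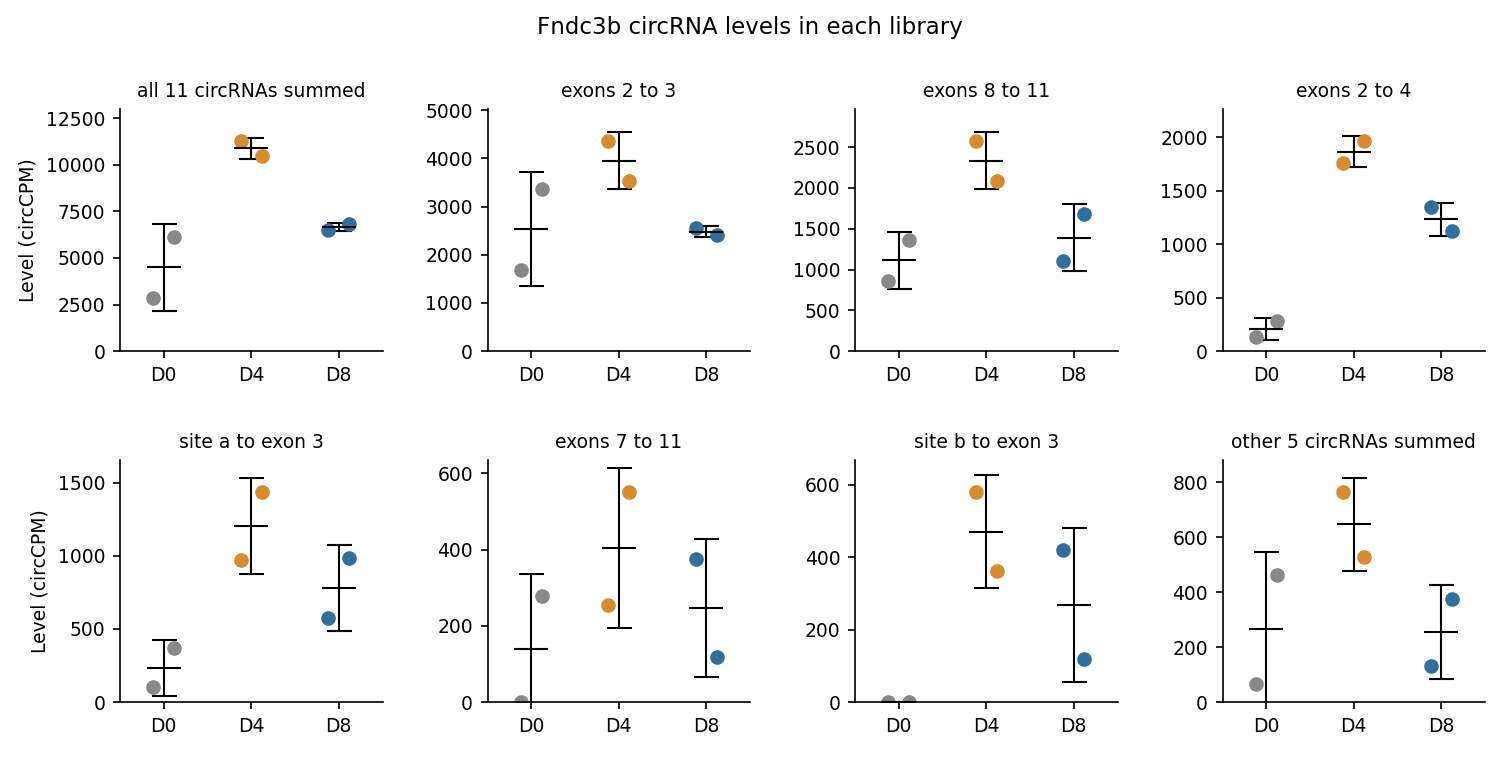
Levels of the Fndc3b circRNAs in circCPM (vertical axes, each from 0) at D0, D4 and D8. Points are libraries, bars are the mean and SD of 2 replicates, and the panels show all 11 circles summed, the 6 circles that were tested, and the other 5 summed. The sum is highest at D4 at 10875 circCPM, and the circle of exons 2 to 4 has all its D4 and D8 libraries above D0.

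With 2 or more reads in both replicates, the detection rule of the authors, the members detected numbered 4 at D0, 10 at D4 and 8 at D8, where 57.6%, 58.7% and 64.5% of all 3662 circRNAs were detected. The 4 of D0 were circ_0001113, circ_0010608, circ_0010609 and the circle of site a, and all of these were detected at each stage. With 5 or more reads in both replicates the numbers were 2, 7 and 6, and with 2 or more in either replicate they were 7, 11 and 10. Library totals were also lower at D0, and their part in these numbers was not tested. Both D4 libraries lay above both D0 libraries in circCPM for 5 of the 7 members that averaged at least 5 reads, where 25.4% of all 1707 such circRNAs did. The 6 tested members had a median log2 change of 2.00 from D0 to D4, against 0.03 over all circRNAs tested, but members pass the filter on low counts through the stage where they are high, so neither this median nor the count of 5, which includes the circle of site b at 0 at D0, is read as a result.

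**Figure D3:**
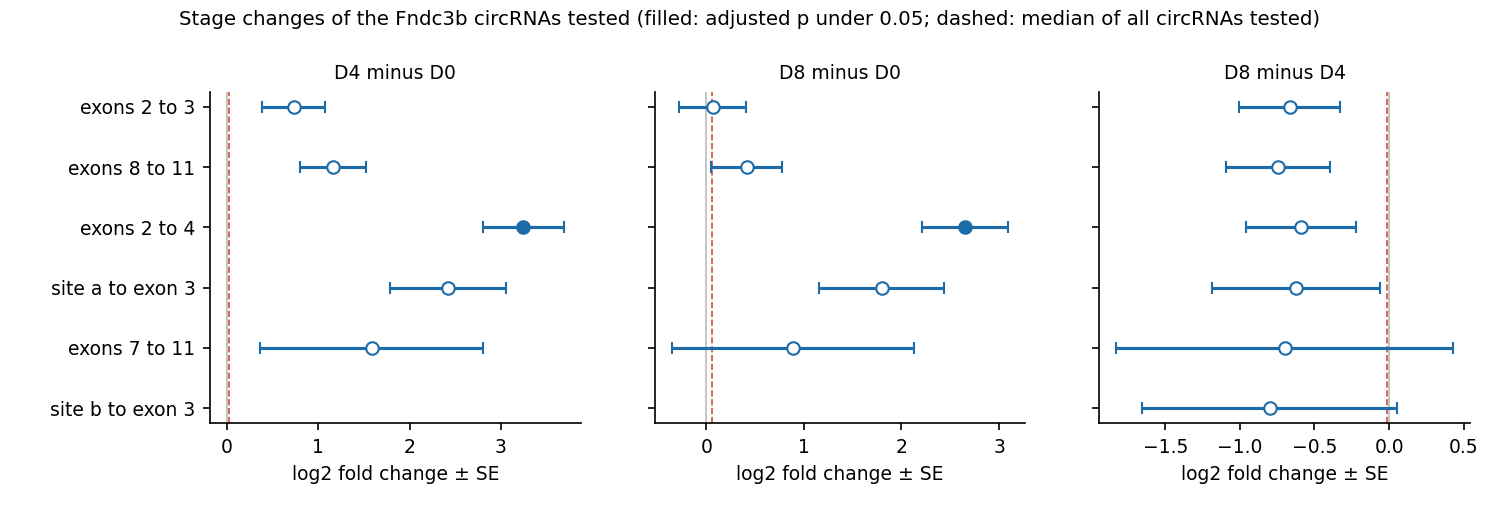
Log2 fold change ± SE (horizontal axes) of the Fndc3b circRNAs tested, for D4 minus D0, D8 minus D0 and D8 minus D4. Filled points have an adjusted p under 0.05, the dashed line is the median of all circRNAs tested, and the circle of site b has no point against D0, where it was listed at 0. The filled points are those of exons 2 to 4, at 3.24 and 2.65, and all points of D8 minus D4 lie below 0 without passing the test.

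The shares of some Fndc3b circles lay apart at D0, though the test over the gene's isoforms did not pass (adjusted p = 0.231 for D4 and 0.179 for D8 against D0 by edgeR). circ_0001113 held 59.3% and 55.1% of the Fndc3b reads at D0, 38.7% and 33.7% at D4, and 39.3% and 35.4% at D8, with means of 57.2 ± 3.01%, 36.2 ± 3.51% and 37.3 ± 2.80% (SD, n = 2). Both D0 values lay above the other 4, and D4 and D8 overlapped. circ_0010609 went the other way, with 4.65% and 4.55% at D0, 15.6% and 18.8% at D4, and 20.7% and 16.5% at D8. The circle of site a had 3.49% and 6.06% at D0, 8.64% and 13.8% at D4, and 8.81% and 14.5% at D8. The share of circ_0010608 was 26.2 ± 5.66% at D0, 21.4 ± 2.04% at D4 and 20.8 ± 5.44% at D8, so its stages overlapped. The other 7 members held at most 7.58% in any library. The total of these shares holds the circles of sites b, c and d and of exons 10 to 11, at 0 in both D0 libraries and kept through D4 or D8. They could only lower the later share of circ_0001113, and their part in it was not tested.

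**Figure D4:**
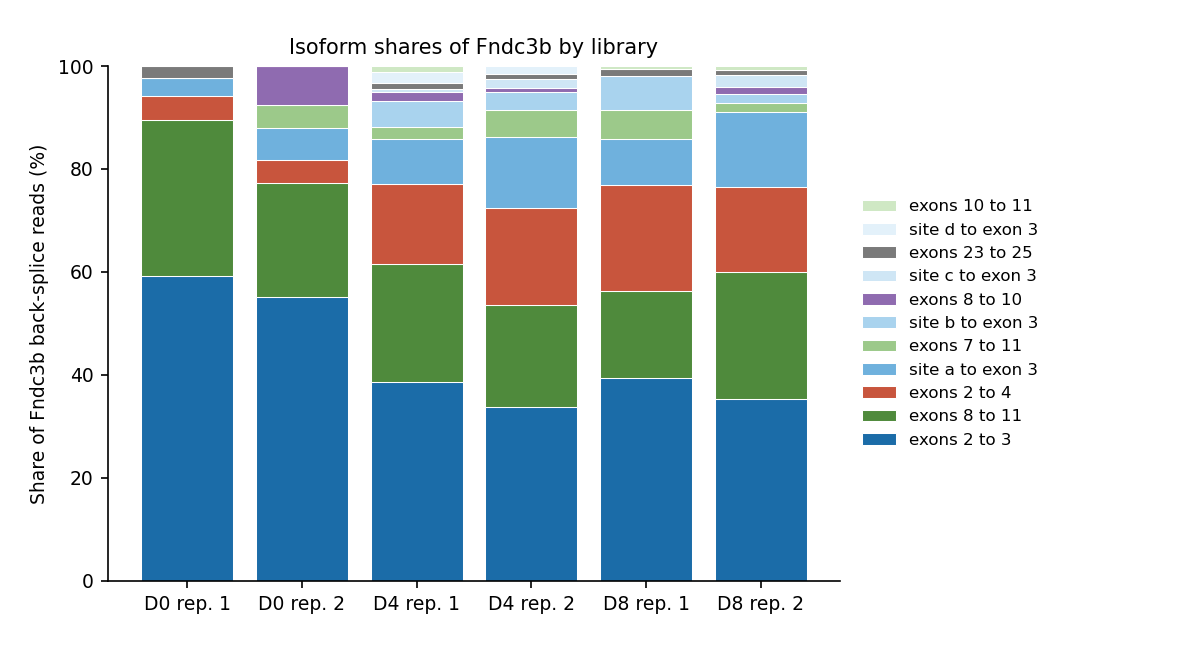
Share of each isoform in the Fndc3b back-splice reads (vertical axis, %) in the 6 libraries, stacked from the most read isoform at the bottom. The circle of exons 2 to 3 takes 55.1 to 59.3% in the D0 libraries and 33.7 to 39.3% in the others, while that of exons 2 to 4 takes under 5% at D0 and over 15% later.

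Shares are not scaled by the library total, but low counts were left out of the table and totals were lowest at D0, and the part of depth in the shares was not tested. Whether shares differ between stages was tested with edgeR's diffSpliceDGE on all 264 genes with 2 or more tested circRNAs. For Fndc3b the gene-level p was 0.00611 for D4 against D0 and 0.0061 for D8 against D0, and neither passed after adjustment over all genes (adjusted p = 0.231 and 0.179). Both values include the circle of site b, which was at 0 at D0, passed the filter through the later stages alone and had the lowest p of the 6 isoforms, so the unadjusted values are not read as a result. In these comparisons 1 gene (0.379%) and 0 genes (0%) were called, with 22 and 31 genes at an unadjusted p under 0.05. Between D4 and D8 the adjusted p was 1, with 0 genes called (0%) and 23 unadjusted. Within the gene, relative to its other isoforms, circ_0010609 differed by a log2 of 1.88 from D0 to D4 and 1.96 from D0 to D8 (adjusted p = 0.533 and 0.499), and circ_0001113 by -0.63 in both (adjusted p = 1), while the circle of site b, listed at 0 at D0, had adjusted p-values of 0.344 and 0.365.

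Splice sites that several circles share give a closer view. The exon 3 donor, used by 5 members, held 62.8% and 61.1% of the Fndc3b reads at D0, 55.1% and 54.4% at D4, and 54.6% and 53.9% at D8. The D0 values were above the others, with an exact permutation p of 0.133 over the 15 ways to pair the libraries, where 0.0667 is the smallest p possible (two-sided, adjusted p = 0.222 over 5 such shares). The exon 11 donor, used by 3 members, held 30.2% and 26.8% at D0, 26.3% and 25.2% at D4, and 23.4% and 27.2% at D8. Both D0 values lay above those of D4, while D8 overlapped both other stages (exact permutation p = 0.467). The share of circ_0001113 in the gene had an exact permutation p of 0.133, and its total holds the circles that were at 0 at D0.

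A pair of shares, chosen after the values were seen, compared the sites joined to the same partner. Of the reads that enter at exon 2, those that leave at exon 4 rather than exon 3 made up 4 of 55 (7.27%, exact 95% interval 2.02 to 17.6%) and 9 of 118 (7.63%, 3.55 to 14%) at D0. On D4 they were 76 of 264 (28.8%, 23.4 to 34.7%) and 82 of 229 (35.8%, 29.6 to 42.4%), and at D8 61 of 177 (34.5%, 27.5 to 42.0%) and 57 of 179 (31.8%, 25.1 to 39.2%). Every interval of D4 and D8 lay above those of D0, while D4 and D8 overlapped. The stage means were 7.45 ± 0.25%, 32.3 ± 4.96% and 33.2 ± 1.85% (SD, n = 2), and the exact permutation test over the 3 stages gave p = 0.2.

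Of the reads that leave at exon 3, those that entered at the sites within intron 1 rather than at exon 2 made up 3 of 54 (5.56%, exact 95% interval 1.16 to 15.4%) and 12 of 121 (9.92%, 5.23 to 16.7%) at D0. They were 80 of 268 (29.9%, 24.4 to 35.7%) and 90 of 237 (38.0%, 31.8 to 44.5%) at D4, and 45 of 161 (28.0%, 21.2 to 35.6%) and 64 of 186 (34.4%, 27.6 to 41.7%) at D8. D0 lay below the 4 other libraries and D4 overlapped D8 (exact permutation p = 0.133). Sites b, c and d were at 0 at D0 and entered the table through D4 or D8, so they could only add to the later shares. Site a alone against circ_0001113 had a mean of 7.74% at D0 and 23.7% over D4 and D8. Both measures count the reads of circ_0001113 in their total and are not independent of each other. Intervals cover counting error only, as the reads carry no molecular identifiers and may copy 1 molecule.

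**Figure D5:**
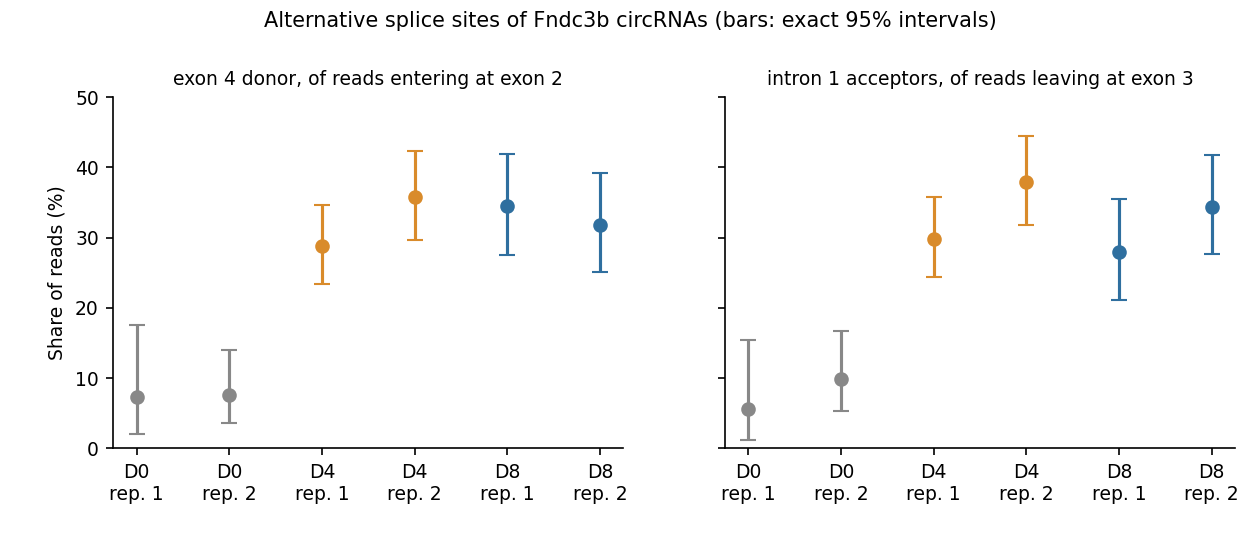
Alternative splice sites in each library. The vertical axis is the share of reads in %, on the left the exon 4 donor among reads that enter at exon 2 and on the right the intron 1 acceptors among reads that leave at exon 3, and bars are exact 95% intervals. Both shares are at most 9.92% at D0 and at least 28.0% at D4 and D8.

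Such separation is common in the table. Among 277 pairs of circRNAs with a shared end and 20 or more reads together in each library, the D0 values lay outside the range of D4 and D8 in 28.9%. In Fndc3b this held for 3 of 8 pairs, exon 2 to 4 against exon 2 to 3 and the circles of sites a and b against circ_0001113. The circle of site b was at 0 at D0 and was kept in the table through its later reads, so its pair is not read as a result. The exon 4 donor moved by 25.3 percentage points between D0 and the mean of D4 and D8 and the median move over the 277 pairs was 5.74 points. This pair was chosen after the values were seen and had the largest move of the 8 Fndc3b pairs, so its place among all pairs is not given.

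Of the 5 circRNAs outside the gene whose levels followed the summed Fndc3b level most closely, 4 are given here. Likeness was measured by Pearson's r of log2(circCPM + 10) over the 6 libraries, among the 397 circRNAs that averaged at least 20 reads. The 4 came from Nbas (circ_0003822, r = 0.987), which acts in transport between Golgi and endoplasmic reticulum, Cnot2 (circ_0000212, r = 0.975), a subunit of the CCR4-NOT deadenylase, Efemp1 (chr11:28767466-28768039, r = 0.959), a matrix glycoprotein, and Sdk1 (circ_0012257, r = 0.957), an adhesion protein that also has fibronectin type III repeats. The Nbas circle, for example, had 1030 and 1548 circCPM at D0, 2043 and 1848 at D4, and 1543 and 1677 at D8. The libraries share their depth and stage, 7.30% of the circRNAs had an r above 0.9, and the median was 0.171, so these values describe likeness only.

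Of 11 genes of the Fndc family, Fndc3a, the closest relative of Fndc3b, was the only other one with circRNAs. Of its 4 circles, circ_0000554 had 3 and 0, 12 and 0, and 19 and 43 reads at the 3 stages, circ_0000553 had 4 and 0, 11 and 13, and 11 and 29, and the others were listed at 0 in both D0 libraries. Of the 4, 2 could be tested and 0 passed (adjusted p = 0.295 and 0.373 by edgeR). Among 50 listed regulators of adipogenesis 23 had circRNAs, and of their 24 tested circles 0 passed the 3-stage test (1.14% of all circRNAs did) and 2 were higher at D4 than at D0 (3.27% of all were called in either direction), one of Nfia with 0 and 0, 70 and 49, and 8 and 30 reads and one of Zbtb16 with 2 and 0, 34 and 35, and 47 and 53 reads. The 24 circles had a median log2 change of 0.79 from D0 to D4, against 0.03 over all circRNAs tested. The Nfia circle, at 0 at D0, is among them and passed the filter on low counts through the later stages alone. The Zbtb16 circle, with 2 and 0 reads at D0, also met the read minimum through the later stages alone. Neither the median of 0.79 nor the count of 2 is therefore read as a result. Of 24 receptors and SMADs of the BMP and TGF-beta pathways 14 had circRNAs. Of 13 tested circles 1 passed the 3-stage test, where 1.14% of all did, circ_0001853 of the receptor Tgfbr2, with 3 and 7 reads at D0, 65 and 61 at D4, and 45 and 68 at D8 (log2 change from D0 to D4 3.29, SE 0.48, adjusted p = 0.0447 across stages by edgeR). Against D0, circles of Tgfbr2 and of the activin receptor Acvr2a were higher at D4 and one of the inhibitory Smad6 was lower, 3 of 13 where 3.27% of all were called, and the median of the 13 was -0.04. The Tgfbr2 circle passed the filter on low counts through D4 and D8 alone. The Smad6 circle needed its D0 libraries to pass it. Neither the count of 1 nor the count of 3 is therefore read as a result.

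Only circRNAs were counted, so the cell type was checked through the parental genes of markers. Of 13 adipocyte markers 4 had circRNAs, at a summed 0 circCPM in both D0 libraries, 302 and 432 at D4, and 1234 and 1362 at D8. These circles entered the table through D4 or D8 and could only add to the later sums, so the rise from D0 is not read as a result. Of 8 markers of progenitors and fibroblasts 1 had a circRNA, with a summed 266 and 310 circCPM at D0 and 0 to 98.7 later. The defining markers of endothelial, immune and mural cells, 6 genes each, had 0 circRNAs in the table. The adipocyte sum was highest at D8 while the Fndc3b sum was highest at D4, and the part of cell composition in the Fndc3b values was not tested.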

How the data were processed

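Reads had been trimmed by the authors (fastp), mapped with BWA-MEM on mm9 and searched for back-splices by CIRI2 in each library (the submitters' processing notes name FastQC 0.11.9 and HISAT2 2.2.0). They deposited raw counts of back-splice reads per circRNA and library, kept where both replicates of a stage had 2 or more. Starts in the table count from 0, and those given here count from 1. Parental genes came from position and strand in GENCODE M1 (NCBIM37, the build of mm9).

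All circRNAs were fitted together in R 4.3.3 with edgeR 4.0.16 (quasi-likelihood F-test, TMM, filterByExpr with a minimum count of 10 and total of 15, Benjamini-Hochberg adjustment over all circRNAs tested, threshold 0.05). SE is the absolute log2 fold change divided by the square root of F. Summed reads per gene were fitted the same way, and shares with diffSpliceDGE. DESeq2 1.42.0 was an alternative. Levels used column totals. Shares were tested by exact permutation over libraries. Python 3.11.15, scipy 1.17.1 and pysam 0.24.0 did the rest.

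Named are all 11 members, the 5 most alike circRNAs (1 of them is not reported here), and list genes past the 3-stage test or in the Fndc family. Nfia, Zbtb16, Acvr2a and Smad6 were named after their values were seen. The members and lists were chosen with earlier results of these data known. The study's mRNA data were not used here.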

Additional observations from a re-analysis of the deposited data

How the results depend on the processing

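The number of Fndc3b circRNAs past the 3-stage test, 1 with all libraries, was 2 with no filter and 0 with column totals, with a mean of 5 or more reads and with a replicate block, and ran from 0 to 1 on leaving out a library. For D4 against D0 it was 2 in a fit of that pair of stages and 0 to 2 on leaving out a library. The second circRNA in the counts of 2 was the circle of site b, which was at 0 at D0 and entered the table through its later reads alone, so these counts add no support. For D8 against D0 it was 0 in a fit of the pair and with the replicate block, and 0 to 1 without a library. For D8 against D4 it was 0 throughout. The adjusted p of the summed reads was 0.0608 with column totals and 0.0573 with no filter, and 0.0145 to 0.148 on leaving out a library. The D8 against D0 change passed without D0 replicate 2 (log2 1.32, adjusted p = 0.025 by edgeR). The reversed log2 values for D8 against D0 were -0.032 for circ_0001113 with column totals, -0.31 without D0 replicate 1 (0.66 at the other end of that range), and for exons 7 to 11 -0.05 without D0 replicate 1 and -0.13 without D8 replicate 1 (up to a fitted 6.41, which depends on the prior count, without D0 replicate 2). The isoform shares did not pass under any of 12 alternatives per comparison, with adjusted p-values of 0.133 to 0.76 for D4 against D0, 0.103 to 0.439 for D8 against D0 and 0.743 to 1 for D8 against D4. Among members with a mean of 5 or more reads the exon 3 donor held 54.7% on D8. Detection on D0 moved to 2 and 7 members with the stricter and looser read minimum. Of the 5 most alike circRNAs, 4 stayed with a pseudocount of 1, and 3 with a pseudocount of 100 or a mean of 5 or more reads. Over all 504 recomputed values, 450 kept their direction and side of the threshold or moved by less than the replicate spread. For counts a limited change was also taken as kept, such as 6 members detected at D0 without D0 replicate 1 in place of 4. A share without 1 of its 2 replicates always lies within their SD of the mean, so it could not move. The number of 450 is therefore not read as a result. The causes of the moves described here were not tested. The sources used here do not say whether same-numbered libraries share a cell preparation, and the deviations of same-numbered libraries correlated at 0.03, 0.07 and 0.05 between stages. The replicate block gave an adjusted p of 0.0757 for circ_0010609. On leaving out a library, the spread of the remaining one was taken from the other stages. The robust estimate of spread was chosen after seeing the data.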
